A study of Mus musculus with 12 samples.

Results

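The genes measured here encode the core of non-homologous end joining (NHEJ), the route by which mammalian cells rejoin broken DNA ends without a template. All 7 genes on the list, Prkdc, Xrcc5, Xrcc6, Lig4, Xrcc4, Nhej1 and Dclre1c, were found by symbol among 26264 genes counted in glomerulus-enriched kidney RNA of male mice aged 8 weeks. Each of the 7 passed the filter on low counts, which left 17002 genes for testing. The mice were BALB/c, either of the Ajcl substrain (BALB/cAjcl) or of the ByJcl substrain (BALB/cByJcl), and each substrain was sampled untreated (baseline) and on Day 5 after a single intravenous dose of 10 mg/kg adriamycin (ADR) given by the retro-orbital route. There were 3 libraries for each substrain and time, 12 in all. Kidneys had been perfused with magnetic beads that lodge in glomerular capillaries, so the RNA is from isolated glomeruli and from whatever else came with the beads, and libraries were poly(A)-selected and strand-specific. The treatment notes also mention control mice given saline, but the baseline mice are described as untreated, and no saline group was analysed here.

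In NHEJ the Ku heterodimer, made of Ku70 and Ku80, slides onto a broken end and holds the catalytic subunit of the DNA-dependent protein kinase there. The kinase phosphorylates itself and activates the nuclease Artemis, and a ligase complex then seals the ends with the help of the filament-forming protein XLF. ADR is an anthracycline that traps topoisomerase II on DNA and so leaves double-strand breaks. BALB/c mice are known for a Prkdc allele that yields less of the kinase than other strains have, and Prkdc variation has been linked in mouse crosses to susceptibility to ADR nephropathy. The counts measure transcripts and carry no information on protein, phosphorylation or alleles.

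Total counts ran from 42198416 to 54687045 per library. The Ajcl Day 5 replicate 1 library stood apart, with 2.49 times as much summed podocyte as renal tubule marker signal against 4.52 to 62.1 times in the other 11, and the study's own main analysis left it out for low glomerular purity. It was left out of the fit here too, which leaves 2 libraries for Ajcl at Day 5, and values with all 12 libraries are given beside results that it moves. Nphs1, which encodes nephrin and is a defining podocyte transcript, was present in every library. The drug response was visible in each treated group. Cdkn1a, the cell cycle inhibitor p21 induced by p53, was 3.94 higher on the log2 scale at Day 5 in Ajcl (adjusted p = 0.000257, or 3.77 with all 12 libraries) and 5.04 higher in ByJcl (adjusted p = 1.6e-05, edgeR). Mdm2, the ubiquitin ligase that restrains p53, was 1.24 higher in ByJcl (adjusted p = 0.00185) and 0.86 higher in Ajcl, where the adjusted p was 0.0905 (0.73 with all 12 libraries, adjusted p = 0.164). Baseline and Day 5 counts were deposited in separate tables, so any difference in how the tables were made and the effect of ADR cannot be told apart.

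Prkdc, which encodes the kinase catalytic subunit, was the only member that edgeR called in any comparison of the 11 libraries, and it fell at Day 5 in ByJcl. Levels are in TMM CPM, which are counts corrected for library size (CPM) with scaling by the trimmed mean of M values (TMM). In ByJcl, Prkdc was at 34.7, 37.5 and 28.8 TMM CPM in the 3 baseline libraries and at 22.1, 20.5 and 24.1 in the 3 Day 5 libraries. Every treated ByJcl library lay below every untreated ByJcl library, and libraries separated so, in either direction, for 33.4% of all tested genes. The log2 fold change was -0.60 (SE 0.17, adjusted p = 0.0451, edgeR quasi-likelihood test over 17002 genes), a level of 66.1% of baseline with a 95% interval from 51.2% to 85.4%. In that comparison 10.6% of all tested genes were called, so a call on its own was common, and Prkdc was at rank 1659 of the 17002 tested genes by p.

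The Prkdc call sat close to the threshold of 0.05. With all 12 libraries in the fit the log2 fold change was -0.58 and the adjusted p 0.132. Leaving out a single library ended the call in 6 of 11 cases, while the log2 fold change stayed between -0.70 and -0.51. By edgeR the adjusted p was 0.0556 without Ajcl baseline replicate 3, 0.111 without ByJcl baseline replicate 1 and 0.154 without ByJcl baseline replicate 2. It was 0.092 without ByJcl Day 5 replicate 1, 0.159 without ByJcl Day 5 replicate 2 and 0.0688 without ByJcl Day 5 replicate 3.

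In Ajcl, Prkdc showed no such separation. The baseline libraries were at 26.2, 39.7 and 34.7 TMM CPM, and the Day 5 libraries in the fit were at 36.6 and 28.3. The left-out Day 5 library was at 19.8 TMM CPM, the lowest value of all 12. The Ajcl log2 fold change at Day 5 was -0.05 (SE 0.19, adjusted p = 0.959, edgeR), with a 95% interval from -0.46 to 0.36, and with all 12 libraries it was -0.26 (adjusted p = 0.831). No member was called in that comparison, where 0.312% of tested genes were.

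**Figure D1:**
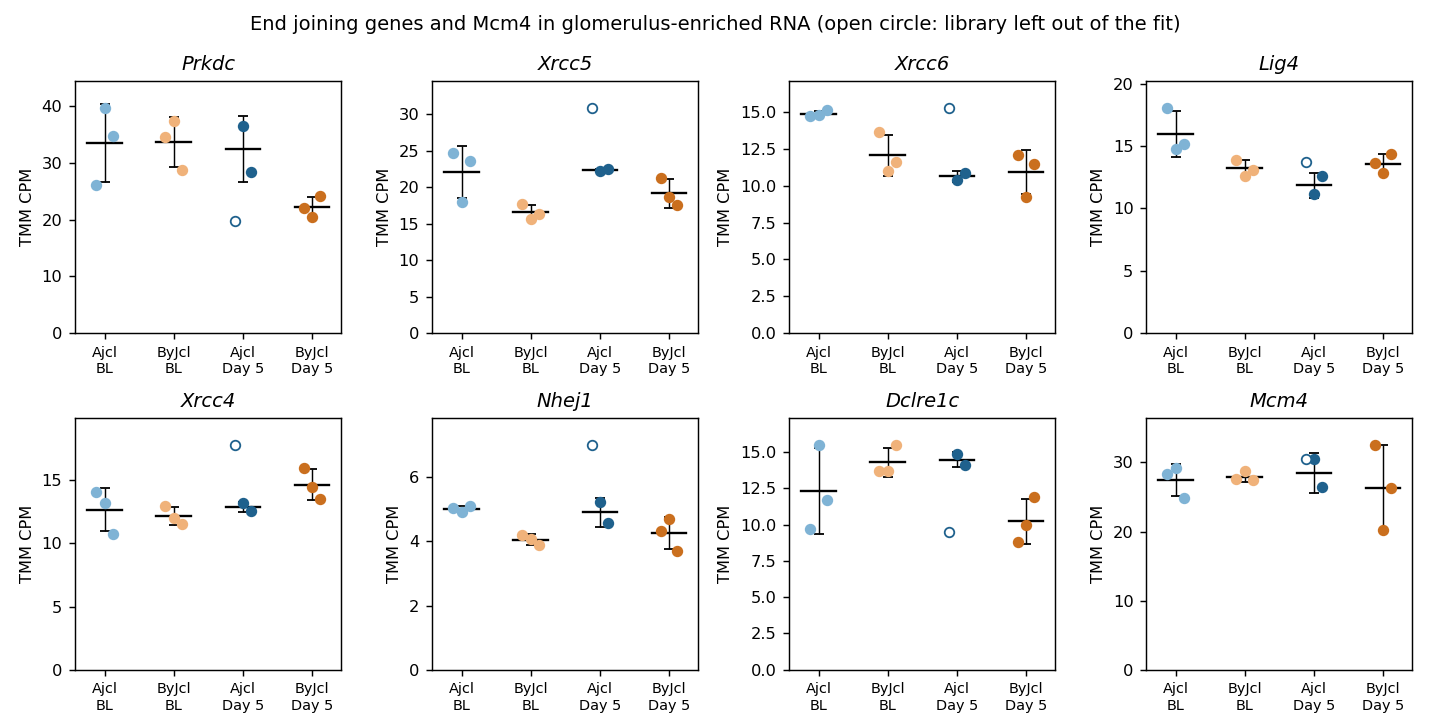
TMM CPM of the 7 NHEJ genes and of Mcm4 in each library, by substrain and time (BL, baseline), with a line for the mean and a bar for the SD of the libraries in the fit, and an open circle for the Ajcl Day 5 library left out of it. The 3 ByJcl Day 5 points of Prkdc, from 20.5 to 24.1, lie under the 3 ByJcl baseline points, and the open circle is the lowest Prkdc value and the highest Xrcc5, Xrcc6, Xrcc4 and Nhej1 value.

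Whether the Prkdc change differed between substrains was asked directly with the interaction of substrain and ADR. The difference of the log2 fold changes, ByJcl minus Ajcl, was -0.55 (SE 0.25, unadjusted p = 0.0499, adjusted p = 0.623, edgeR), so it did not pass after adjustment. With all 12 libraries it was -0.32 (adjusted p = 1.00). The interaction called 0 of the 17002 genes in edgeR, or 0%, with 1363 genes at an unadjusted p under 0.05 and 23 genes called by DESeq2. At baseline Prkdc did not separate the substrains, with a ByJcl against Ajcl log2 difference of 0.01 (95% interval -0.36 to 0.37). At Day 5 it was -0.54 (SE 0.19, adjusted p = 0.253) and -0.34 with all 12 libraries (adjusted p = 0.426). The Day 5 contrasts share the ByJcl Day 5 libraries, so they are not independent readings.

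Prkdc lies at chr16:15455698-15660099 on the plus strand of GRCm39, a span of 204.4 kb with 13.22 kb of exon. It starts 433 bases from the start of Mcm4 (chr16:15440211-15455264, minus strand), a subunit of the replicative helicase that shares its divergent promoter. Mcm4 was not called. It was at 27.5, 28.8 and 27.5 TMM CPM in ByJcl at baseline and at 32.6, 20.2 and 26.3 at Day 5, a log2 fold change of -0.08 (SE 0.16, adjusted p = 0.779, edgeR). Over the 12 libraries the Pearson correlation of Mcm4 with Prkdc, on log2(TMM CPM + 1), was 0.19, and over the 11 libraries of the fit it was 0.37.

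Artemis, encoded by Dclre1c, is the endonuclease that opens hairpins and trims overhangs once the kinase has activated it. Of the other members, Dclre1c had the highest correlation with Prkdc over the 12 libraries. In ByJcl it was at 13.7, 13.7 and 15.5 TMM CPM at baseline and at 8.78, 10.00 and 11.9 at Day 5. As with Prkdc, all treated ByJcl libraries were below all untreated ByJcl libraries, a separation shown in either direction by 33.4% of all tested genes. The log2 fold change was -0.48 (SE 0.18, adjusted p = 0.115, edgeR), which did not pass the threshold. In Ajcl it was at 9.71, 15.5 and 11.7 at baseline and at 14.8 and 14.1 at Day 5, with 9.50 in the left-out library. The Ajcl log2 fold change was 0.23 (adjusted p = 0.783, edgeR), or 0.045 with all 12 libraries (adjusted p = 0.979). The interaction was -0.72 (SE 0.27, unadjusted p = 0.0224, adjusted p = 0.62), or -0.51 with all 12 libraries (adjusted p = 1.00). Dclre1c shares 46.67% of its exonic length with Suv39h2 on the opposite strand, and the strand setting of the counting is not given in the sources used here, so reads of these genes may not have been told apart. Suv39h2 held 673 counts over all 12 libraries against 7034 for Dclre1c.

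Of the upstream sequences in the RefSeq promoter table (build GRCm38.p6), 6 of the 7 members have an entry, and those of Dclre1c and of the 2 Ku genes are shown because Dclre1c had the highest correlation with Prkdc and the Ku genes encode partners in a complex. Each is the 250 bases before the start site, 5′ to 3′ on the plus strand. Capitals mark the GC box, spelled GGGCGG, the CCAAT box, and the core of the cAMP response element, spelled TGACG, each on either strand. No marked stretch overlaps another.
Dclre1c, chr2:3423881-3424130: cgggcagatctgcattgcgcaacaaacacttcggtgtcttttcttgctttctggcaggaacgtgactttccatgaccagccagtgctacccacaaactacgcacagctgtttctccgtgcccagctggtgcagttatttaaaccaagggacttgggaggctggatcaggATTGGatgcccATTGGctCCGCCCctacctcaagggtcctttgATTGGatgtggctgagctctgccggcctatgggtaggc
Xrcc5, chr1:72307171-72307420: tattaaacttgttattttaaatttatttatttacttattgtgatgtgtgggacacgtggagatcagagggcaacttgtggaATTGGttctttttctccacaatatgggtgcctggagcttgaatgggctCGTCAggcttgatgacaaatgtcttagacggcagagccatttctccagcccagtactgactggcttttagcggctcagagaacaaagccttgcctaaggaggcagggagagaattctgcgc
Xrcc6, chr15:82016119-82016368: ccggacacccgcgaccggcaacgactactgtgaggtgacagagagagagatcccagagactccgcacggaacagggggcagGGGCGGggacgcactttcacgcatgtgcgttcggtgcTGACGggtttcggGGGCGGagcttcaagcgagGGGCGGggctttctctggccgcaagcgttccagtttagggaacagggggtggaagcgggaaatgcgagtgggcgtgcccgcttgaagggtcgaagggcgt

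The Dclre1c window held 3 CCAAT boxes and 1 GC box, the Xrcc5 window 1 CCAAT box and 1 TGACG, and the Xrcc6 window 3 GC boxes and 1 TGACG. Over all 32851 RefSeq windows of the same length, 33.85% held a CCAAT box, 32.7% a GC box and 17.8% a TGACG. Guanine and cytosine made up 54.8% of the Dclre1c window, 44.8% of the Xrcc5 window and 65.2% of the Xrcc6 window, against a median of 52.4% over all windows. The consensus of the p53 response element had no match in the windows of any of the 6 members, and 0.064% of all windows held it. These matches describe letters in a window and no binding was measured.

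The Ku subunits, which bind the broken end first, were not called by edgeR in any comparison of the 11 libraries. Xrcc5, which encodes Ku80, was at 24.6, 17.96 and 23.6 TMM CPM in Ajcl at baseline and at 17.6, 15.6 and 16.4 in ByJcl at baseline. The untreated substrains did not overlap, which was so for 14.5% of all tested genes. The log2 difference was -0.42 (SE 0.14, unadjusted p = 0.0118, adjusted p = 0.555, edgeR), which did not pass after adjustment. At Day 5 Xrcc5 was at 22.1 and 22.5 in Ajcl, with 30.8 in the left-out library, and at 21.3, 18.7 and 17.5 in ByJcl. Neither substrain had a change with ADR that passed, with a log2 fold change of 0.02 in Ajcl (adjusted p = 0.983, edgeR), or 0.17 with all 12 libraries (adjusted p = 0.872), and 0.21 in ByJcl (adjusted p = 0.363).

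Xrcc6, which encodes Ku70, was at 14.7, 14.8 and 15.1 TMM CPM in Ajcl at baseline. It was at 13.7, 11.01 and 11.6 in ByJcl at baseline, again below Ajcl in every library, with a log2 difference of -0.30 (SE 0.14, adjusted p = 0.6, edgeR). At Day 5 it was at 10.4 and 10.9 in Ajcl and at 12.1, 9.24 and 11.5 in ByJcl. The left-out Ajcl library was at 15.3, above all the others. The Ajcl log2 fold change at Day 5 was -0.49 (SE 0.16, adjusted p = 0.308), and -0.31 with all 12 libraries (adjusted p = 0.698), while the ByJcl log2 fold change was -0.14 (adjusted p = 0.572). Xrcc6 shares 7.34% of its exonic length with Desi1 on the opposite strand, which held 25515 counts over all 12 libraries against 7048 for Xrcc6.

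Because both Ku genes were counted in the same libraries, the ratio of their levels per kb of exon does not depend on the scaling between libraries. Xrcc5 stood 1.77 to 2.45 times as high as Xrcc6 in Ajcl at baseline and 2.95 to 3.12 times in the 3 Ajcl Day 5 libraries, the left-out library included. In ByJcl the ratio was 1.89 to 2.07 at baseline and 2.23 to 2.96 at Day 5. The ratio was thus higher at Day 5 than at baseline in each substrain with no overlap. Of single tested genes, 33.4% separated in either direction with ADR in ByJcl, and 25.1% in Ajcl with 2 Day 5 libraries. No such share was computed for ratios. The ratio was examined after the levels had been seen and was not tested.

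The ligation step rests on Lig4, Xrcc4 and Nhej1. Lig4, which encodes the ligase that seals the ends, was at 18.1, 14.7 and 15.1 TMM CPM in Ajcl at baseline and at 11.1 and 12.6 at Day 5, with 13.7 in the left-out library. Ajcl Day 5 lay below Ajcl baseline in all libraries, the left-out library included. Over the libraries of the fit, 25.1% of tested genes separated there in either direction. The log2 fold change of Lig4 was -0.43 (SE 0.14, adjusted p = 0.312, edgeR), or -0.37 with all 12 libraries (adjusted p = 0.371). In ByJcl, Lig4 was at 13.9, 12.6 and 13.1 at baseline and at 13.6, 12.8 and 14.3 at Day 5, which overlap (log2 fold change 0.04, 95% interval -0.24 to 0.32). The interaction of Lig4 was 0.47 (SE 0.19, unadjusted p = 0.0318, adjusted p = 0.62, edgeR), or 0.43 with all 12 libraries (adjusted p = 1.00).

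Xrcc4, the scaffold that binds and stabilises the ligase, ran between 10.8 and 14.1 TMM CPM in the untreated libraries and between 12.6 and 16.0 in the treated libraries of the fit, and was at 17.8 in the left-out library. Its log2 fold change at Day 5 was 0.27 in ByJcl (SE 0.14, adjusted p = 0.241, edgeR). Treated and untreated ByJcl libraries did not overlap, as for 33.4% of tested genes in either direction. In Ajcl its log2 fold change was 0.02 (adjusted p = 0.974), or 0.18 there with all 12 libraries (adjusted p = 0.851). Xrcc4 shares 4.19% of its exonic length with Tmem167 on the opposite strand, which held 26864 counts against 7561 for Xrcc4. Nhej1, which encodes XLF and bridges the ends with Xrcc4, had the lowest counts of the list, from 172 to 324 per library. It was at 4.91 to 5.09 TMM CPM in Ajcl at baseline and at 3.89 to 4.21 in ByJcl at baseline, a log2 difference of -0.31 (SE 0.17, adjusted p = 0.621). Its log2 fold change at Day 5 was 0.07 in ByJcl and -0.03 in Ajcl, where it was 0.14 with all 12 libraries.

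**Figure D2:**
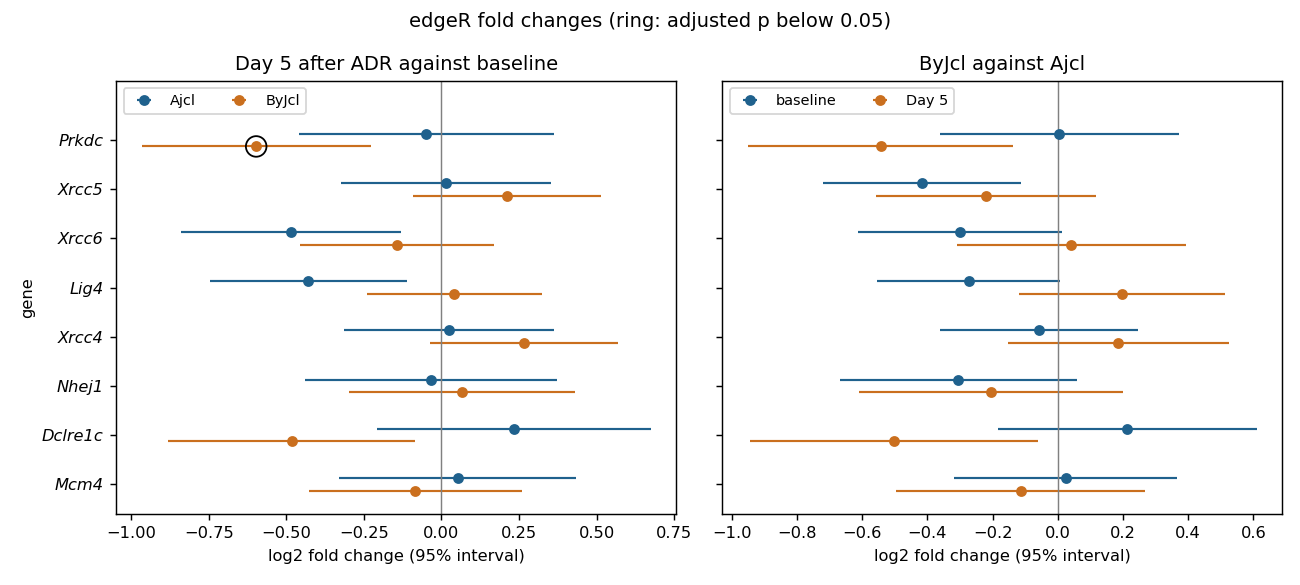
Log2 fold changes with 95% intervals for Day 5 against baseline in each substrain (left) and ByJcl against Ajcl at each time (right), from edgeR, with a ring around an adjusted p below 0.05. The ring marks Prkdc in ByJcl at -0.60, and on the left the intervals of Xrcc6 and Lig4 in Ajcl and of Dclre1c in ByJcl exclude 0 without passing after adjustment.

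Counted over the list, edgeR called 0 of 7 members between the substrains at baseline, where 0.159% of tested genes were called, and 0 of 7 at Day 5, where 0.165% were. The median log2 difference of the members, ByJcl against Ajcl, was -0.27 at baseline and -0.20 at Day 5, against 0.01 and 0 over all tested genes. The Day 5 median was -0.33 with all 12 libraries, against -0.01. The median log2 fold change with ADR was -0.03 in Ajcl and 0.04 in ByJcl, against -0.01 and 0.01 over all tested genes, and in Ajcl it was 0.04 with all 12 libraries. Averaged over substrains, edgeR called 0 of 7 members for ADR, where it called 10.4% of tested genes, and DESeq2 called 1, Xrcc6, as edgeR did 1, Prkdc, without Ajcl baseline replicate 1. Averaged over times, edgeR called 0 of 7 for substrain, where it called 0.565% of tested genes, and DESeq2 with all 12 libraries called 1, Xrcc5. At an unadjusted p under 0.05 in edgeR there was 1 member at baseline (8.34% of all tested genes), 2 at Day 5 (13.96%), 2 for ADR (24.8%) and 1 for substrain (15.9%). There were 2 for ADR in Ajcl (9.80%), 2 for ADR in ByJcl (26.8%) and 3 in the interaction (8.02%). The nearest to a call were Xrcc6 for ADR, with a log2 fold change of -0.31 (adjusted p = 0.091, edgeR), and Xrcc5 for substrain, with a log2 difference of -0.32 (adjusted p = 0.188). The 95% intervals of single members reached 0.28 to 0.44 on either side of their log2 values in the 4 comparisons of groups. A change smaller than the reach of its own interval could not be told from 0. Some larger changes, such as Xrcc5 between substrains at baseline, did not pass after adjustment.

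Whether libraries of the groups overlapped was counted as well. At baseline 4 of 7 members, Xrcc5, Xrcc6, Lig4 and Nhej1, were lower in ByJcl than in Ajcl with no overlap between libraries, and so separated, in either direction, were 14.5% of all tested genes. At Day 5 Prkdc, Xrcc5 and Dclre1c were lower and Lig4 and Xrcc4 higher in ByJcl without overlap, where 33.4% of tested genes separated with 2 Ajcl libraries, and with the left-out library included only Xrcc5 still did. With ADR, 2 of 7 separated in Ajcl, Xrcc6 and Lig4, against 25.1% of tested genes, and Lig4 alone did with the left-out library included. In ByJcl 3 of 7 separated with ADR, Prkdc and Dclre1c lower and Xrcc4 higher, against 33.4% of tested genes. The shares are over the libraries of the fit, and none was computed with the left-out library included.

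Levels of different genes were compared per kb of exon. Xrcc5 was the most abundant, with a median over 12 libraries of 5.89 TMM CPM per kb and a lowest value of 4.60, above the highest value of any other member. Lig4 (2.60), Xrcc6 (2.39) and Prkdc (2.16) followed with overlapping ranges, and Nhej1 (1.57), Dclre1c (1.18) and Xrcc4 (1.08) were the lowest. Neighbours in that order were often not separated, since Lig4 was above Xrcc6 in 8 of 12 libraries, Xrcc6 above Prkdc in 9 and Dclre1c above Xrcc4 in 7. Prkdc was above Nhej1 in 10 of 12 libraries and Nhej1 above Dclre1c in 11. Exonic length here is the union of all annotated exons, so genes with long alternative ends, such as Xrcc4 with 12.24 kb, are set low on this scale.

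**Figure D3:**
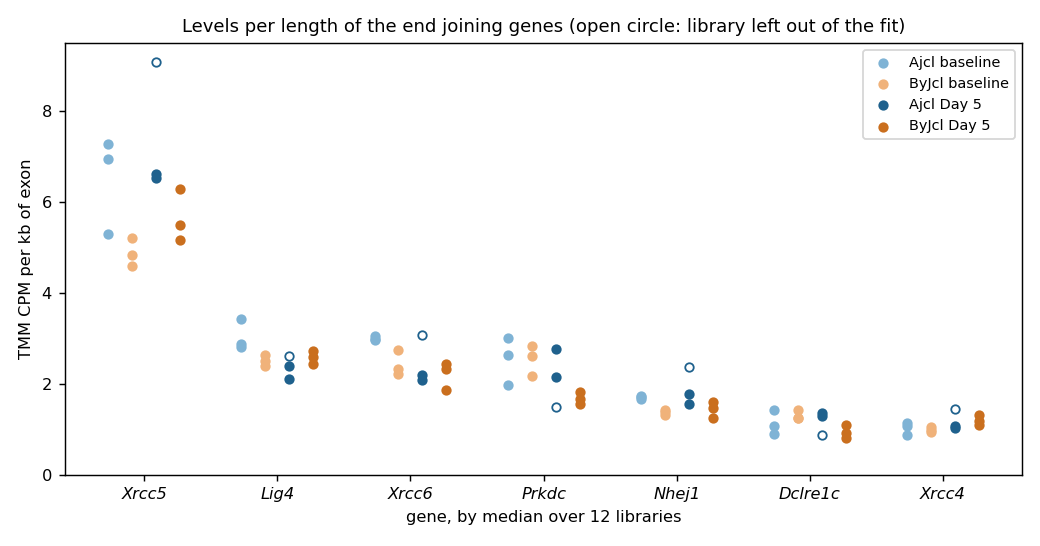
TMM CPM per kb of exon for the 7 NHEJ genes in each of 12 libraries, ordered by median and coloured by substrain and time, with an open circle for the library left out of the fit. Xrcc5 lies at 4.60 and above in every library, and the other 6 genes lie at 3.43 and below.

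The members followed Prkdc to different degrees across libraries. On log2(TMM CPM + 1) over the 12 libraries, the Pearson correlation with Prkdc was 0.79 for Dclre1c, 0.14 for Xrcc6, -0.11 for Lig4, -0.22 for Nhej1, -0.41 for Xrcc5 and -0.72 for Xrcc4. Xrcc5 and Nhej1 correlated at 0.86, and Xrcc6 and Lig4 at 0.71. These are descriptions over 12 points that share group membership, and scaling, and leaving that library out moved Nhej1 from -0.22 to 0.25, Xrcc5 from -0.41 to -0.15 and Xrcc6 from 0.14 to 0.41.

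Of all tested genes, the 4 whose levels followed Prkdc most closely over the 12 libraries were Phactr2, a phosphatase and actin regulator (r = 0.97), Bod1l, a replication fork factor (0.97), Sema5a, a semaphorin (0.96), and Cdk5rap2, a centrosome protein (0.96). Over the 11 libraries of the fit their correlations were 0.97, 0.97, 0.95 and 0.95. All 4 have long transcripts, with 12.27 to 20.45 kb of exon. Dclre1c ranked 823 in that order.

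**Figure D4:**
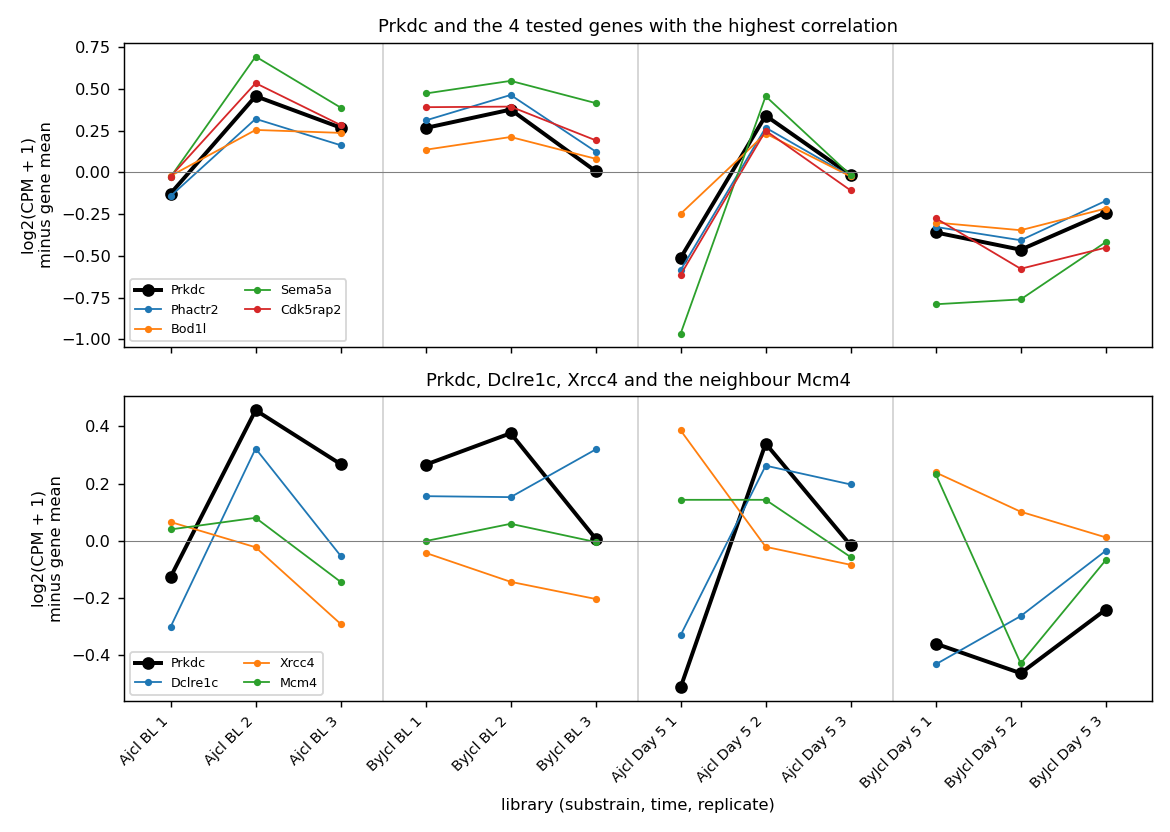
Log2(TMM CPM + 1) minus each gene's mean over the 12 libraries, by library and with lines joining points within a group only to guide the eye, for Prkdc with its 4 most similar genes (top) and with Dclre1c, Xrcc4 and Mcm4 (bottom). Prkdc is lowest in Ajcl Day 5 replicate 1 and low in all 3 ByJcl Day 5 libraries, Dclre1c (r = 0.79) is below its mean in the same 4 and in 2 Ajcl baseline libraries, and Xrcc4 (r = -0.72) is above its mean in those 4, though barely so in ByJcl Day 5 replicate 3.

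Transcript length moved with the direction of change in both substrains, and in ByJcl the longest genes leaned lower. In Ajcl the longest genes leaned higher in the fit, and lower once the left-out library was included. Prkdc was longer in exon than 92.1% of the tested genes with a length and fell in the longest of 10 bins of equal gene number. In ByJcl the median log2 fold change at Day 5 went from 0.08 in the bin of shortest genes to -0.10 in the longest, where 62.2% of genes were below 0. In Ajcl it went from -0.02 to 0.04, with 41.5% of the longest bin below 0. With all 12 libraries the Ajcl median went from 0.17 in the shortest bin to -0.08 in the longest, where 66.1% of genes were below 0. The interaction median went from 0.12 in the shortest bin to -0.16 in the longest, or from -0.08 to -0.02 with all 12 libraries. For ByJcl against Ajcl at Day 5 it went from 0.07 to -0.10, or from -0.11 to 0.03 with all 12 libraries. The Prkdc value of -0.60 in ByJcl was well under the median of its bin, and the Xrcc4 value of 0.27 was above the median of its own bin, -0.05. The part of transcript length in the Prkdc result was not tested.

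**Figure D5:**
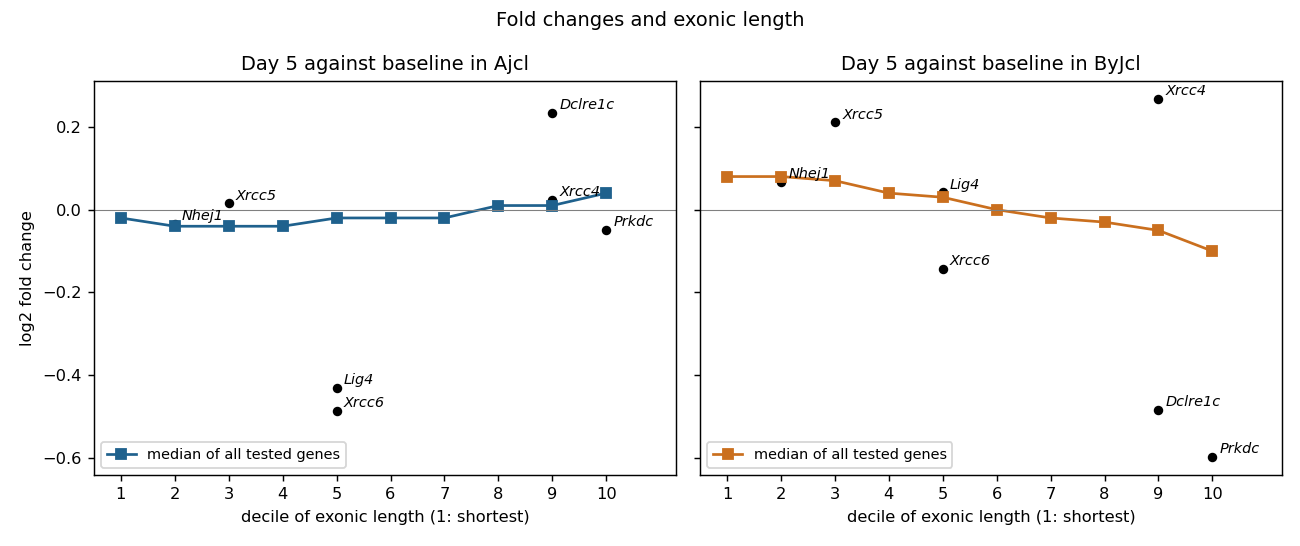
Median log2 fold change at Day 5 over all tested genes by bin of exonic length (squares) in Ajcl and ByJcl in the fit of 11 libraries, with the 7 NHEJ genes as points at their own bin. The ByJcl medians fall from 0.08 to -0.10 and the Ajcl medians end at 0.04, and in ByJcl Prkdc at -0.60 and Dclre1c at -0.48 lie under the median of their bins.

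Podocyte markers and some endothelial markers moved with the Prkdc result as well. Summed over the 8 podocyte markers, the level was 18231 to 21032 TMM CPM in ByJcl at baseline and 7132 to 10679 at Day 5, and all 8 were called lower, with a median log2 fold change of -1.20. In Ajcl the sum was 14364 to 20022 at baseline and 9265 to 14676 over the 3 Day 5 libraries, the left-out library the lowest, and 0 of 8 were called (median -0.40, or -0.50 with all 12 libraries). The 6 glomerular endothelial markers summed to 6982 to 8364 in ByJcl at baseline and 4171 to 6312 at Day 5, with 2 of 6, Ehd3 and Flt1, called lower, neither of which was with all 12 libraries. The other 4 were not called, and Pecam1 at 0.29 and Cdh5 at 0.13 had log2 fold changes above 0. The 5 mesangial markers summed to 1592 to 1978 in ByJcl at baseline and 1529 to 2190 at Day 5, and 0 of the 4 tested were called there. The 6 tubule markers ranged from 245 to 3714 over all libraries with 0 of 6 called at Day 5 in either substrain. At baseline all 6 were lower in ByJcl than in Ajcl (median log2 difference -1.09), with 0 called. The part of tubule RNA in the baseline differences of the members was not tested. Of 6 immune markers 1 was called higher with ADR in ByJcl, where 10.6% of tested genes were called, and 0 in Ajcl. Their baseline sums were 22.2 to 31.3 in ByJcl and 10.5 to 15.4 in Ajcl. The 6 lymphocyte markers summed to under 3 TMM CPM in every library. Over the 12 libraries the Pearson correlation of Prkdc with the podocyte sum was 0.84, with the endothelial sum 0.82, with the mesangial sum 0.1 and with the tubule sum 0.07. With the sum of proliferation markers it was -0.61 and with the immune sum -0.26. With the sum of 7 genes of the p53 response, Cdkn1a and Mdm2 among them, it was -0.71. In bulk RNA fewer cells of a type and less RNA per cell cannot be told apart, and the part of cell composition in the Prkdc result was not tested.

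Over the wider repair genes, edgeR called 3 of 41 at Day 5 in ByJcl, all lower, where 10.6% of all tested genes were called. Of 16 factors that assist or channel end joining, 15 were tested, and 2 were called lower at Day 5 in ByJcl. The median log2 fold change over the 15 was -0.14. Of 9 genes for sensing and signalling breaks 1 was called lower (median -0.07), and 0 of 6 genes for alternative end joining (median -0.21) and 0 of 11 for homologous recombination (median 0.14) were called in either direction. In Ajcl 0 of these 41 tested genes were called at Day 5 by edgeR, where 0.312% of all tested genes were, with medians of 0.06, 0.05, -0.13 and 0.17 in the same order. These medians were 0.04, -0.09, -0.15 and 0.02 with all 12 libraries. Averaged over substrains 0 of the 41 were called by edgeR, where 10.4% of tested genes were, and Paxx was nearest (adjusted p = 0.050009). Paxx was called there in the fit of all 12 libraries (log2 fold change -0.61, adjusted p = 0.0333).

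The 3 called in ByJcl were picked out for naming once their values were known. Paxx, which stabilises Ku at the ends, was at 108.3, 94.8 and 94.98 TMM CPM at baseline and at 76.7, 35.8 and 44.0 at Day 5, a log2 fold change of -0.93 (SE 0.23, adjusted p = 0.0268, edgeR). Trp53bp1, which shields ends from resection, was at 70.1, 73.6 and 68.9 and then at 51.5, 47.6 and 49.5 (log2 fold change -0.52, adjusted p = 0.0476). Atm, the kinase that signals breaks, was at 48.9, 43.8 and 46.5 and then at 37.4, 30.0 and 30.6 (log2 fold change -0.51, adjusted p = 0.0277). In Ajcl their log2 fold changes were -0.26, -0.12 and -0.07, and with all 12 libraries they were -0.30, -0.38 and -0.39, none of them called. With all 12 libraries Paxx was still called in ByJcl (adjusted p = 0.0328, edgeR) and Trp53bp1 (0.224) and Atm (0.297) were not.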

How the data were processed

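Per the labels and the study's methods, the authors used FastQC and Trimmomatic on the reads, STAR with GRCm39 for alignment and featureCounts to obtain counts for each gene. The deposited counts are whole numbers of reads per gene and library, not normalized and not pooled. The annotation and the strand setting are not given in the sources used here. Most low counts were even (77.1% to 82.9% per library), and whether reads or pairs were counted is not given either. All columns of the 2 tables were used.

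Counts were tested in R 4.3.3 with edgeR 4.0.16 (filterByExpr by group, TMM, quasi-likelihood, 1 coefficient for each of 4 groups, 11 libraries), with Benjamini-Hochberg adjustment over 17002 genes and a call at an adjusted p under 0.05. Alternatives were DESeq2 1.42.0, RLE scaling, no filter, all 12 libraries, a replicate block, halved counts, only the groups compared and leaving out each library. The study describes the baseline libraries as from separate mice. For Day 5 the labels say only that they are separate samples, so p-values measure the spread between these samples. Replicates of a group differed by a chi-square of 44.6 to 271 per degree of freedom, so none was a copy of another. Coordinates and lengths are from GENCODE for GRCm39, and 16384 of the tested genes had a length. The members and all gene lists were chosen with earlier results of these data known. Named were all members, Mcm4, Cdkn1a, Mdm2, the 5 genes most correlated with Prkdc (the fifth is not reported here) and, by that rule, wider repair genes called for ADR averaged over substrains, of which there were none in the 11 libraries. Paxx, Trp53bp1, Atm, Ehd3, Flt1, Pecam1, Cdh5 and the genes of the last section were named outside the rule, after their values were seen.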

Additional observations from a re-analysis of the deposited data

How the results depend on the processing

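The Prkdc fall in ByJcl was negative in all 20 alternatives and called in 10 of them, with an adjusted p from 0.016 (DESeq2) to 0.159. It was lost with all 12 libraries, with the replicate block, with all 12 libraries in DESeq2 and with all 12 libraries and the block, each leaving 0 members called, and 6 of 11 fits without 1 library did the same (0 to 1 called). With the replicate block the adjusted p was 0.0515. Correlations of same-numbered deviations between groups ran from -0.39 to 0.53. Differently numbered libraries were not compared, so whether replicate numbers pair the libraries was not settled. DESeq2 called 1 member, Xrcc6, for ADR averaged over substrains, and with all 12 libraries 1 member, Xrcc5, for substrain averaged over times. No member was called between substrains at baseline or at Day 5, in Ajcl or in the interaction under any alternative run.

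Values near 0 changed sign. Prkdc at baseline, 0.01 between substrains, was -0.0090 in DESeq2, -0.0089 with RLE, -0.0021 without the filter, -0.022 with all 12 libraries, -0.0028 with halved counts, -0.023 with only the groups compared, -0.0029 with all 12 in DESeq2 and -0.0034 with all 12 and the block. Xrcc6 at Day 5 between substrains, 0.04, was -0.15 with all 12 libraries, -0.018 with the block, -0.14 with all 12 in DESeq2 and -0.14 with all 12 and the block. Nhej1 in Ajcl was 0.14, 0.16 and 0.12 with all 12 libraries in edgeR, in DESeq2 and with the block, and its interaction was -0.059, -0.071 and -0.045. Leaving out each library in turn, the log2 value ranged from -0.17 to 0.14 for Prkdc at baseline, from -0.048 to 0.15 for Xrcc6 at Day 5 between substrains, and in Ajcl from -0.26 to 0.11 for Prkdc, -0.11 to 0.082 for Xrcc5, -0.071 to 0.094 for Xrcc4 and -0.15 to 0.044 for Nhej1. For Nhej1 in ByJcl it ranged from -0.011 to 0.18.

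Counts over all genes moved more. DESeq2 called 101 genes at baseline, 555 at Day 5, 301 in Ajcl, 23 in the interaction and 696 for substrain averaged over times, and with all 12 libraries 69, 926, 326, 7 and 1249. Without the filter 56 were called at Day 5 and 99 in Ajcl. With all 12 libraries edgeR called 72 at Day 5 and 1197 in ByJcl, and with the block added 58, 1109 and, in Ajcl, 26. The block alone gave 26 in Ajcl, and fitting only the groups compared gave 15 at baseline, 6 at Day 5 and 33 in Ajcl. Leaving out each library in turn gave 12 to 29 calls at baseline, 9 to 218 at Day 5, 11 to 180 in Ajcl, 680 to 2056 in ByJcl, 0 to 5 in the interaction, 531 to 1816 for ADR averaged over substrains (0 to 1 of them a member) and 34 to 280 for substrain averaged over times. The cause was not tested.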

Other observations

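Rag1, the recombinase whose breaks NHEJ rejoins in developing lymphocytes, was listed at 0 counts in all 6 baseline libraries. At Day 5 it had 0, 4 and 10 counts in the 3 Ajcl libraries and 12, 22 and 6 in the 3 ByJcl libraries. All of these counts are even, and whether each pair was counted once is not given, so the number of molecules behind them may be smaller. Rag1 passed the filter on low counts only through the Day 5 libraries and did not pass it in the fit of all 12 libraries, so no test is given. The lymphocyte markers Cd3e, Cd3g, Cd79a and Cd79b were not called at Day 5 in either substrain. Dntt, the polymerase that adds bases at those joins, had 0 to 2 counts in the baseline libraries and 0 to 8 at Day 5, and did not pass the filter.

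Alas2, the heme synthesis enzyme of red cell precursors and the only 1 of 4 erythroid genes to pass the filter, was called lower at Day 5. Its log2 fold change was -3.46 in Ajcl (adjusted p = 0.0272, edgeR), where 0.312% of tested genes were called. In ByJcl it was -3.50 (adjusted p = 0.00201), where 10.6% were called. Hba-a1 and Hbb-bs were at 0 in every library, so they carry no information on a change.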
